A study of Arabidopsis thaliana with 9 samples.

Results

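Seedlings of Arabidopsis thaliana treated with abscisic acid (ABA) were compared directly with seedlings treated with sodium chloride (NaCl), and the control arrays were not used. The comparison took the 6 arrays, of 9 in the series, whose titles name one of the treatments, with 3 arrays for ABA and 3 for NaCl. All plants were Col-0, the common laboratory accession, and 4 weeks old, and they were grown in pots and given either 10 μM ABA or 150 mM NaCl for 6 h. Whole seedlings, root and shoot together, gave the total RNA, which was hybridised to one-colour (Cy3) Agilent oligonucleotide arrays. According to the methods, the seedlings of a treatment were pooled at harvest and the pool was divided into 3 portions, whereas the design text speaks of separate experiments with different plants, so the p-values may measure only the spread between portions. A single slide carried the 3 NaCl arrays, and its scan came 235 days ahead of that of the ABA arrays, of which ABA 2 and ABA 3 shared a slide and ABA 1 had one of its own. No slide and no scan day held both treatments, so treatment and scan day cannot be told apart in any value given here.

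ABA is the hormone with which plants respond to water deficit. It binds receptors of the PYR/PYL family, the bound receptors inhibit the clade A protein phosphatases 2C (PP2C), and the SnRK2 kinases that these phosphatases hold back then activate bZIP transcription factors of ABA-responsive genes. Salt acts on a plant partly as an osmotic stress, which raises ABA, and partly through the sodium ion, and it also sets off fast calcium and oxidative signals, while a gene that both treatments shift alike shows no difference in a direct comparison.

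Levels are given as log2 intensities after quantile normalization over the 6 arrays, and a difference is the mean ABA level minus the mean NaCl level, so that negative values are higher with NaCl. Values after ± are standard errors of that difference from the limma fit. A gene was called at an adjusted p under 0.05 and a fold of at least 2. Between 68.9% and 72.0% of the spots on each array were well above background, and no spot was saturated. The arrays correlated at 0.977 to 0.987 within the ABA group, at 0.960 to 0.976 within the NaCl group and at 0.937 to 0.960 between the groups, across probes. The median standard deviation of a gene between replicates was 0.22 with ABA and 0.28 with NaCl on the log2 scale. From 212 to 229 spots of each NaCl array and from 8 to 19 of each ABA array were marked non-uniform or outlying and left out.

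Markers of organs differed between the arrays, and so did the spike-in RNAs. Of 13 root markers, 2 to 5 were above background on each ABA array, where their summed normalized intensity was 207 to 314, although the tissue is labelled as whole plant. The sum was 4433 on NaCl 1 (9 markers above background), 2181 on NaCl 2 (6 markers) and 557 on NaCl 3 (5 markers). COBL9 (AT5G49270), a marker of root hairs, was above background on all 3 NaCl arrays and on none of the ABA arrays, a difference of at least 5.39-fold (adjusted p = 0.00338). All 9 flower markers were above background on NaCl 3, with a sum of 6647, against 2 to 5 markers and sums of 93.8 to 219 on the other 5 arrays. The 47 nuclear photosynthesis genes were above background on every array, with sums of 8343540 to 8566830 with ABA and 5425410 to 6393620 with NaCl. The part of the root and flower signal in the differences below was not tested, and fewer cells of a type cannot be told apart from less RNA per cell. Of the 10 spike-in RNAs, added in fixed amounts, the 7 above a log2 level of 6 all had higher means on the NaCl arrays, with a median difference of -0.39 as deposited and of -1.23 after normalization.

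**Figure D1:**
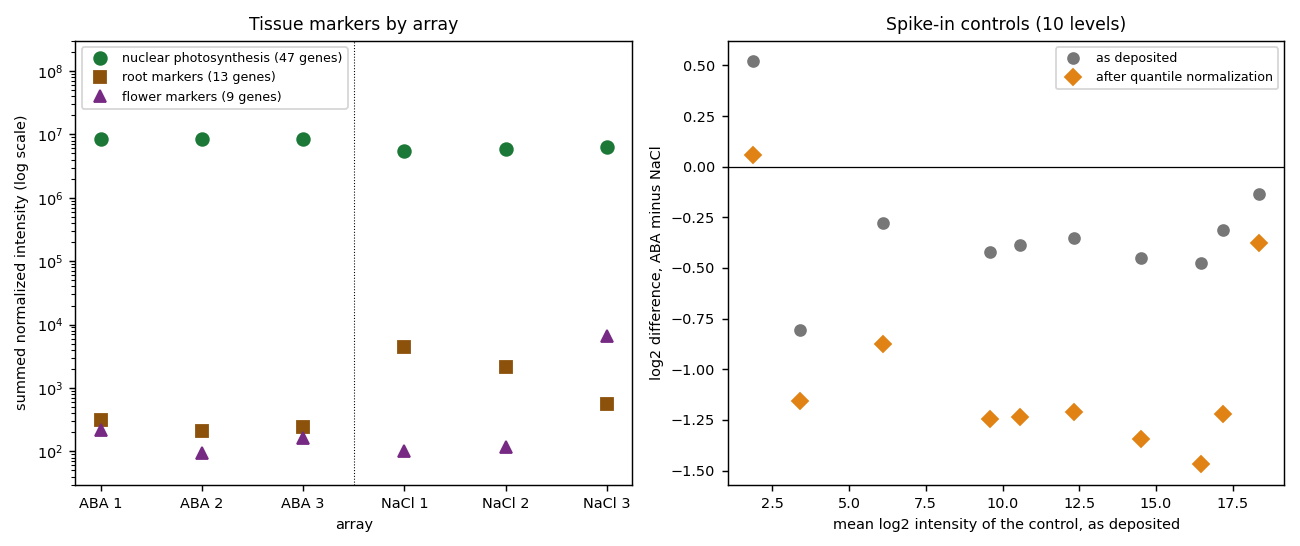
Left, summed normalized intensity of root, flower and nuclear photosynthesis markers on each array (log axis, one symbol per list). Right, log2 difference, ABA minus NaCl, of each spike-in control against its mean log2 intensity, as deposited (circles) and after quantile normalization (diamonds), with all 7 brighter controls below 0 at both stages.

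Of 22435 genes tested, 4402 (19.6%) were called, 2177 higher with ABA (9.7%) and 2225 higher with NaCl (9.92%). At an unadjusted p under 0.05 with the same fold limit the share was 22.6%. The 3 ABA arrays lay wholly above the 3 NaCl arrays for 25.4% of the tested genes and wholly below them for 27.1%. The near-equal split of the calls depended on the scaling. Without scaling between arrays the calls were 8035 higher with ABA and 892 higher with NaCl, with the median of all genes at 0.78, and with scaling to the spike-in controls, added after their levels were seen, they were 12990 and 619, with the median at 1.18. Under the main scaling that median was -0.01, and every difference below is thus relative to the typical gene and not an absolute amount of RNA. Large differences were more frequent with NaCl, where 356 called genes had a fold of at least 8, against 161 with ABA. Of the 4402 called genes, 346 were at background on every array of one treatment. Their folds are given as lower bounds, computed against the dimmest signal called above background on each array. These bounds hold only for the main background correction. With normexp background correction the log2 differences were -0.72 for NCED9, 0.60 for GA2OX8, -2.97 for COR27 and -5.85 for AT1G19210. Each of these was a smaller fold than the bound given below for that gene.

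The genes with the largest differences toward NaCl included transcription factors and genes with no symbol in the reference table. RRTF1 (AT4G34410), an ERF transcription factor that responds to redox state, measured 6.54, 4.66 and 6.00 on the ABA arrays and 13.94, 13.62 and 13.05 on the NaCl arrays, and was 224-fold higher with NaCl (log2 difference -7.81 ± 0.52, adjusted p = 0.00122, difference -7.20 without ABA 2). AT4G27654 was 309-fold higher with NaCl (log2 difference -8.27 ± 0.29, adjusted p = 0.000501) and AT5G17350 207-fold higher with NaCl (log2 difference -7.69 ± 0.47, adjusted p = 0.00106). NUDT4 (AT1G18300), a nudix hydrolase, was 60.5-fold higher with NaCl (log2 difference -5.92 ± 0.24, adjusted p = 0.000616), and BAP1 (AT3G61190), a partner of the BON1 copine that restrains cell death, 52.5-fold higher with NaCl (log2 difference -5.71 ± 0.47, adjusted p = 0.00186). The 3 NaCl arrays lay above the 3 ABA arrays for each of these genes. With normexp background correction the differences were smaller, at -5.94 for RRTF1, -6.46 for AT4G27654 and -6.30 for AT5G17350. Among genes at background on all ABA arrays, AT1G19210 was higher with NaCl by at least 348-fold (adjusted p = 0.000959), and COR27 (AT5G42900), a cold-regulated gene tied to the clock, higher with NaCl by at least 53.4-fold (adjusted p = 0.000896).

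On the ABA side the largest folds among the described genes with a matched locus belonged to plant defensins, described below, and to a few single genes. TAT3 (AT2G24850), a tyrosine aminotransferase known as a jasmonate-responsive gene, measured 13.58, 14.95 and 14.25 on the ABA arrays and 9.40, 7.44 and 8.79 on the NaCl arrays, and was 52.5-fold higher with ABA (log2 difference 5.71 ± 0.58, adjusted p = 0.00277). BG3 (AT3G57240), a glucanase of the pathogenesis-related group, was 94.5-fold higher with ABA (log2 difference 6.56 ± 0.71, adjusted p = 0.00454, difference 7.25 without ABA 1), with 2 NaCl spots in place of 3. Without NaCl 1 or NaCl 3 this probe had too few spots to be tested. Another probe of BG3 then stood for the gene, with differences of 4.46 and 4.44. FRK1 (AT2G19190), a receptor-like kinase used as a marker of flagellin responses, was 19.2-fold higher with ABA (log2 difference 4.26 ± 0.70, adjusted p = 0.00872, difference 4.95 without NaCl 1). All ABA arrays lay above all measured NaCl arrays for these 3 genes. ATCSLA15 (AT4G13410), a cellulose synthase-like gene, was at background on all NaCl arrays and higher with ABA by at least 44.2-fold (adjusted p = 0.000501).

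**Figure D2:**
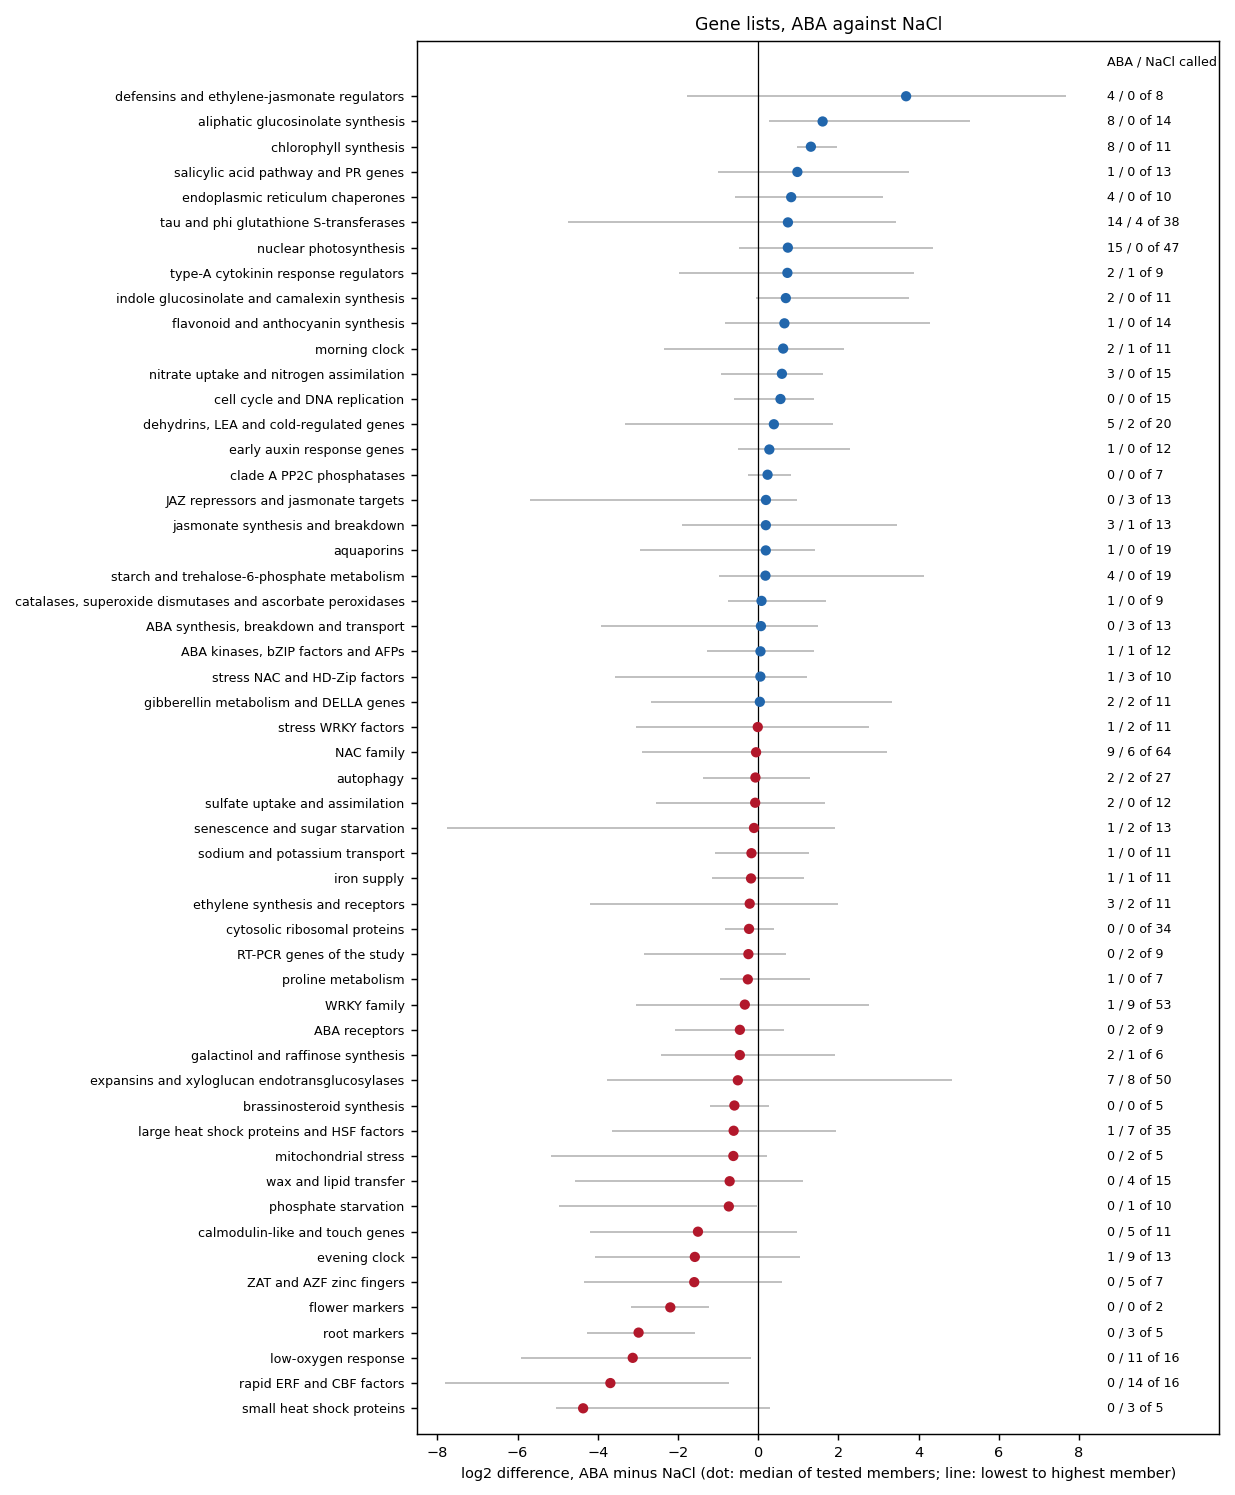
Median log2 difference, ABA minus NaCl, of the tested members of each of 53 gene lists (dot; line from the lowest to the highest member), with the number of members called higher with ABA, called higher with NaCl and tested at the right. Small heat shock proteins, rapid ERF and CBF factors and low-oxygen genes lie farthest to the NaCl side, and defensins, aliphatic glucosinolate genes and chlorophyll genes farthest to the ABA side. The 3 called small heat shock proteins passed the filter only through the NaCl arrays.

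The lists and families, 53 in all, ranged widely around the typical gene. In 20 of them more members were called higher with NaCl, in 24 more were called higher with ABA and in 9 the counts were equal. The rapidly acting transcription factors stood at one end. Of 16 tested ERF and CBF factors, which bind GCC-box or DRE promoter elements, 14 were called higher with NaCl and none with ABA, with a median difference of -3.69, against the 9.92% of all genes called in that direction, and 15 had all NaCl arrays above all ABA arrays. The count was 13 to 15 when any 1 array was left out. CBF2 (AT4G25470), one of the 3 tandem CBF genes that activate cold-response genes, measured 8.41, 8.33 and 8.46 on the ABA arrays and 14.30, 14.39 and 14.18 on the NaCl arrays, and was 59.4-fold higher with NaCl (log2 difference -5.89 ± 0.13, adjusted p = 0.000155). CBF1 (AT4G25490) measured 8.35, 8.12 and 8.66 on the ABA arrays and 13.12, 13.84 and 13.97 on the NaCl arrays, and CBF3 (AT4G25480) measured 10.59, 10.05 and 10.97 on the ABA arrays and 13.94, 14.86 and 14.50 on the NaCl arrays. The groups were far apart for all 3 CBF genes, by 38.4-fold for CBF1 (adjusted p = 0.000899) and 14.9-fold for CBF3 (adjusted p = 0.00199). DREB2A (AT5G05410), the activator of drought- and heat-response genes, was 15.4-fold higher with NaCl (log2 difference -3.94 ± 0.23, adjusted p = 0.000971). ERF11 (AT1G28370), a repressor of ethylene responses, was 11.1-fold higher with NaCl (log2 difference -3.47 ± 0.32, adjusted p = 0.00241). DDF1 (AT1G12610), a relative of the CBF factors, was 27.2-fold higher with NaCl (log2 difference -4.77 ± 0.47, adjusted p = 0.00269). ERF1A (AT4G17500), at -0.89 ± 0.39 (adjusted p = 0.128), and ERF2 (AT5G47220), at -0.72 ± 0.22 (adjusted p = 0.0467), missed the call.

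Other signalling genes lay on the same side. Of 7 tested ZAT and AZF zinc fingers, repressors with an EAR motif, 5 were called higher with NaCl. ZAT12 (AT5G59820) measured 10.98, 11.83 and 10.56 on the ABA arrays and 15.67, 15.64 and 15.12 on the NaCl arrays, and was 20.4-fold higher with NaCl (log2 difference -4.35 ± 0.36, adjusted p = 0.00186). ZAT10 (AT1G27730) was 9.34-fold higher with NaCl (adjusted p = 0.0038), while the call of AZF3 (AT5G43170) was lost without ABA 1, ABA 2, ABA 3, NaCl 1 or NaCl 2 (adjusted p up to 0.128). Among 11 calmodulin-like and touch genes, which sense calcium or answer to it, 5 were called higher with NaCl and none with ABA. CML38 (AT1G76650) measured 11.23, 10.64 and 10.18 on the ABA arrays and 14.89, 14.94 and 14.76 on the NaCl arrays, and was 18.2-fold higher with NaCl (log2 difference -4.18 ± 0.28, adjusted p = 0.00122). CML37 (AT5G42380) and CML23 (AT1G66400) were 17.6-fold and 18.2-fold higher with NaCl, and the touch gene TCH2 (AT5G37770) 5.41-fold. TCH3 (AT2G41100), another touch gene, had the opposite sign, at 0.97 ± 0.26, and fell short of the fold limit, and 1 member was called higher with ABA without ABA 3 or NaCl 1. ACS6 (AT4G11280), a stress-regulated enzyme of ethylene synthesis, measured 9.60, 10.41 and 10.12 on the ABA arrays and 14.42, 14.34 and 13.93 on the NaCl arrays, and was 18.2-fold higher with NaCl (log2 difference -4.19 ± 0.26, adjusted p = 0.00106). All NaCl arrays were above all ABA arrays for these genes except TCH3.

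WRKY factors, which act mostly in defence, were called about as often as all genes. In the family 9 of 53 tested members were called higher with NaCl and 1 with ABA, 18.9% in either direction against 19.6% of all genes. Under the alternatives with the same test and call rule, the count with NaCl ran from 3 without NaCl 1 to 16 with array weights, and that with ABA from 1 to 6. WRKY40 (AT1G80840), a negative regulator of ABA responses, was 8.30-fold higher with NaCl (log2 difference -3.05 ± 0.27, adjusted p = 0.00226). WRKY22 (AT4G01250) was 3.87-fold higher with NaCl (adjusted p = 0.00661). WRKY30 (AT5G24110) was the one called with ABA, at 8.71, 9.14 and 8.00 on the ABA arrays and 6.5, 5.67 and 5.37 on the NaCl arrays, a difference of 6.81-fold (adjusted p = 0.00631). NAC factors went both ways, with 9 of 64 called higher with ABA and 6 with NaCl, 23.4% in either direction against 19.6% of all genes, and the NaCl count was 3 without NaCl 2. NAP (AT1G69490) and NAC6 (AT5G39610), both regulators of leaf senescence, were 3.07-fold and 2.78-fold higher with ABA. ATAF1 (AT1G01720) was 3.17-fold higher with NaCl (adjusted p = 0.00281), as were NAC062 (AT3G49530) and TIP (AT5G24590), membrane-bound NAC factors, by 4.06-fold and 4.74-fold. NAC019 (AT1G52890), at 0.20 ± 0.21, and NAC055 (AT3G15500), at 0.56 ± 0.23, NAC factors that respond to ABA and drought, were not called.

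Genes of the low-oxygen response, which serve fermentation, haemoglobin and oxygen sensing, lay on the NaCl side. Of 16 tested, 11 were called higher with NaCl and none with ABA, with a median difference of -3.13, and 15 had all NaCl arrays above all ABA arrays. HB1 (AT2G16060), the stress-responsive haemoglobin, measured 12.27, 10.93 and 12.68 on the ABA arrays and 15.30, 17 and 15.32 on the NaCl arrays, and was 15-fold higher with NaCl (log2 difference -3.91 ± 0.64, adjusted p = 0.00857). ADH1 (AT1G77120), alcohol dehydrogenase, measured 12.83, 9.54 and 12.26 on the ABA arrays and 14.91, 15.80 and 14.98 on the NaCl arrays, and was 12.9-fold higher with NaCl (log2 difference -3.69 ± 0.87, adjusted p = 0.0236, difference -4.32 without ABA 1 and -2.67 without ABA 2). HRE2 (AT2G47520), an ethylene response factor of the oxygen-sensing group, measured 6.03, 1.63 and 5.31 on the ABA arrays and 9.12, 11.76 and 9.86 on the NaCl arrays, with 2 ABA arrays above background. ABA 2 was the lowest array for each of these 3 genes, and all NaCl arrays lay above all ABA arrays. For ADH1 and HRE2 the ABA arrays differed more among themselves than the NaCl arrays, while for HB1 the spread was similar in both groups. PDC1 (AT4G33070), pyruvate decarboxylase, showed the widest spread, at 10.12, 1.96 and 10.00 on the ABA arrays and 11.95, 13.40 and 11.37 on the NaCl arrays, and was not called (adjusted p = 0.143). SAD6 (AT1G43800), a desaturase, measured 10.07, 1.86 and 8.77 on the ABA arrays and 12.67, 12.83 and 12.87 on the NaCl arrays, and was not called either (adjusted p = 0.0739). The enzymes alanine aminotransferase, ALAAT1 (AT1G17290), and pyruvate decarboxylase 2, PDC2 (AT5G54960), showed smaller differences, of 2.12-fold and 2.71-fold. The ALAAT1 call was lost without NaCl 2 (log2 difference -0.92). That of PDC2 was lost without ABA 1, ABA 2, NaCl 1, NaCl 2 or NaCl 3 (adjusted p up to 0.101). The count of calls in this list was sensitive to single arrays, with 1 call without NaCl 2, 4 without ABA 3 or NaCl 1, 7 without NaCl 3 and 10 without ABA 2, while the median stayed between -3.84 and -2.24 in the alternatives run for the lists. The HRE2 call was lost without NaCl 2 (adjusted p of 0.0639), and that of ADH1 without ABA 3, NaCl 1 or NaCl 2 (adjusted p up to 0.0802). Root marker sums were also higher on the NaCl arrays, and their part in these differences was not tested.

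**Figure D3:**
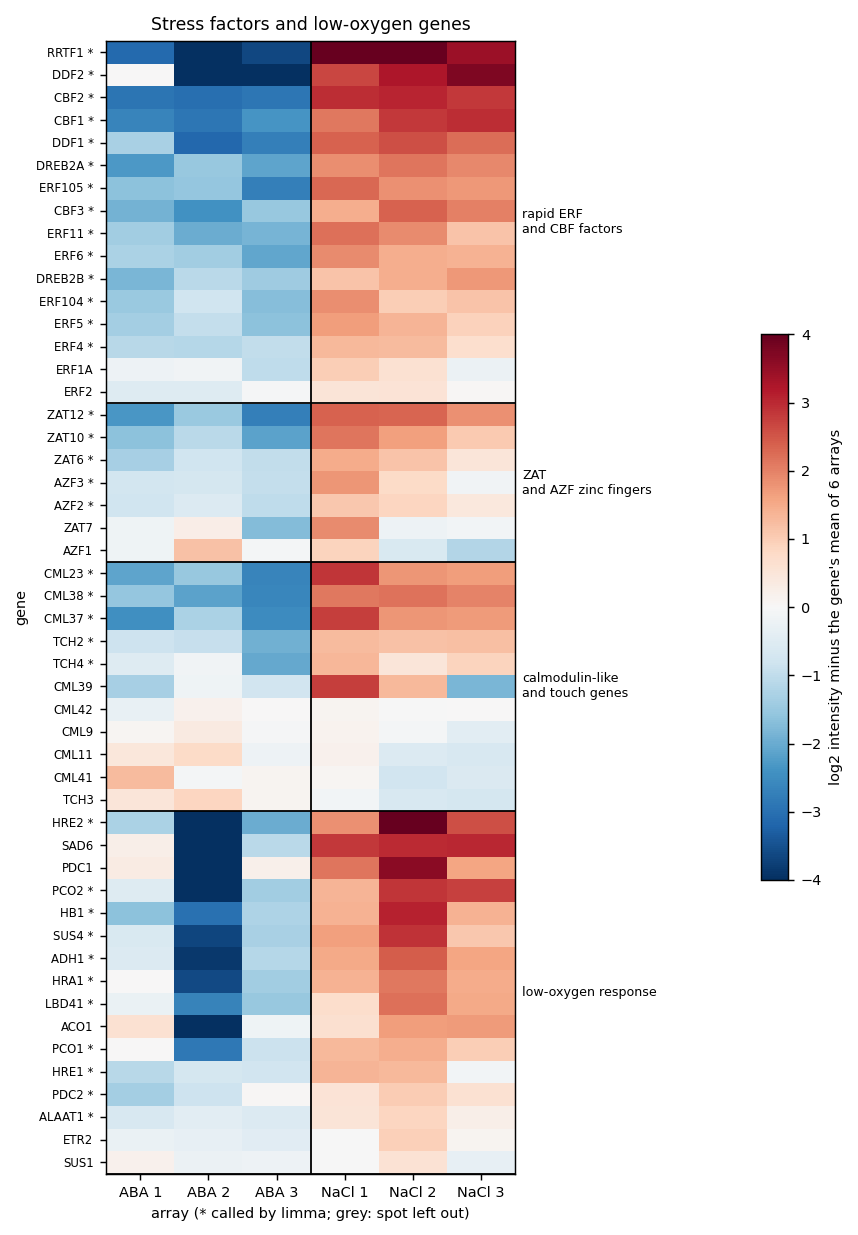
Log2 intensity of each gene on each array minus the mean of its 6 arrays, colours ending at 4 log2 units either way, for the rapid ERF and CBF factors, ZAT and AZF zinc fingers, calmodulin-like and touch genes and low-oxygen genes (asterisk, called by limma). The ERF and CBF factors differ between treatments with little spread, whereas in the low-oxygen block ABA 2 stands below ABA 1 and ABA 3.

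The called heat shock genes mostly went in the same direction. Of 5 small heat shock proteins tested, chaperones that hold unfolded proteins, 3 were called higher with NaCl (60%, against 9.92% of all genes). All 3 were at background on every ABA array and passed the filter only through their NaCl signal. Their share is thus not independent evidence of a direction. Under the alternatives with the same test and call rule the count ran from 0 to 6, and the list median from -5.68 to 0.30. HSP17.4 (AT3G46230) measured 2.26, 4.14 and 2.74 on the ABA arrays and 8.55, 9.28 and 6.42 on the NaCl arrays, and was higher with NaCl by at least 16.9-fold (adjusted p = 0.00904). HSP17.6A (AT5G12030) was at least 10.9-fold higher (adjusted p = 0.014), a call lost without ABA 3 (adjusted p of 0.0506). The fitted differences of both were larger without NaCl 3, and with normexp background correction they shrank to -1.92 for HSP17.4 and -1.45 for HSP17.6A. NaCl 3 was the lowest NaCl array for these genes, and the count was 6 of 7 genes tested without it and 1 without ABA 3. Among 35 larger heat shock proteins and heat shock factors, 7 were called higher with NaCl and 1 with ABA. This was 22.9% in either direction, close to the 19.6% of all genes, and the count with ABA was 3 without ABA 1. HSP70 (AT3G12580) measured 9.66, 8.98 and 9.12 on the ABA arrays and 12.65, 13.31 and 12.72 on the NaCl arrays, and was 12.5-fold higher with NaCl (log2 difference -3.64 ± 0.27, adjusted p = 0.00144). HSFA2 (AT2G26150), a heat-inducible activator of chaperone genes, was 6.04-fold higher with NaCl (log2 difference -2.59 ± 0.49, adjusted p = 0.0121). The exception was SHD (AT4G24190), the HSP90 of the endoplasmic reticulum, which was 3.84-fold higher with ABA (log2 difference 1.94 ± 0.22, adjusted p = 0.00333). The list of chaperones of that compartment, which fold secreted proteins, includes SHD. It lay on the ABA side, with 4 of 10 called, SHD among them (40%, against 9.7% of all genes). The median of this list was 0.82, but the count was 1, SHD itself, without ABA 1, ABA 2 or NaCl 2. BIP3 (AT1G09080), the stress-inducible binding protein, measured 8.49, 9.89 and 7.48 on the ABA arrays and 6.83, 4.94 and 4.79 on the NaCl arrays, and its call was lost without ABA 1, ABA 2, NaCl 2 or NaCl 3 (adjusted p up to 0.0958).

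Evening genes of the circadian clock lay mostly on the NaCl side, while few morning genes were called. Of 13 tested evening genes, 9 were called higher with NaCl and 1 with ABA, with a median of -1.58, and 12 had all NaCl arrays above all ABA arrays, against 27.1% of all genes. Between 8 and 9 were called higher with NaCl when any 1 array was left out. ELF4 (AT2G40080), of the evening complex, measured 6.14, 6.05 and 5.83 on the ABA arrays and 9.73, 9.95 and 10.53 on the NaCl arrays, and was 16.7-fold higher with NaCl (log2 difference -4.06 ± 0.24, adjusted p = 0.000971). PRR5 (AT5G24470), a pseudo-response regulator, measured 8.51, 9.38 and 9.20 on the ABA arrays and 11.65, 11.49 and 11.38 on the NaCl arrays, and was 5.57-fold higher with NaCl (log2 difference -2.48 ± 0.25, adjusted p = 0.0028). TOC1 (AT5G61380), another of that family and a core repressor, measured 7.92, 8.28 and 8.05 on the ABA arrays and 9.48, 9.78 and 9.79 on the NaCl arrays, a difference of 3.04-fold (adjusted p = 0.0028). The groups did not overlap for any of the 3 and the replicates lay within 1 log2 unit of each other. GI (AT1G22770), which links the clock to flowering, was 2.54-fold higher with NaCl (adjusted p = 0.00487). CDF1 (AT5G62430), a flowering repressor that peaks early in the day but was counted in the evening list, was 2.08-fold higher with ABA. This call was lost without ABA 3 or NaCl 2 (log2 difference down to 0.98). Among the morning genes 2 of 11 were called higher with ABA and 1 with NaCl (27.3%, against 19.6% of all genes). Their median was 0.62, between 0.0003 and 0.69 in the alternatives, and 7 of the 11 lay above 0. LHY (AT1G01060) measured 11.58, 11.33 and 11.52 on the ABA arrays and 9.69, 9.19 and 9.10 on the NaCl arrays, and was 4.44-fold higher with ABA (log2 difference 2.15 ± 0.20, adjusted p = 0.00243), and its partner CCA1 (AT2G46830) was 2.29-fold higher with ABA (log2 difference 1.2 ± 0.19, adjusted p = 0.00731). RVE2 (AT5G37260), a related MYB factor, was the one called higher with NaCl (5.05-fold, adjusted p = 0.00477). According to the methods, unstressed seedlings were gathered alongside the treated ones with circadian effects in mind. The hour at which the ABA and the NaCl seedlings were harvested is not given in the sources used here, and the part of time of day in these differences was not tested.

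A few genes that make and break down ABA itself were called on the NaCl side, while the list as a whole had no clear direction. Of 13 tested genes 3 were called, all higher with NaCl. This was 23.1%, against 19.6% of all genes in either direction and 9.92% higher with NaCl. The median of the list was 0.07, between -0.33 and 0.22 in the alternatives, and 7 members lay above 0. A further member, 1 gene, was called higher with ABA without NaCl 1 or NaCl 2. NCED3 (AT3G14440), the rate-limiting dioxygenase of stress-induced ABA synthesis, measured 7.63, 8.31 and 7.79 on the ABA arrays and 11.05, 11.21 and 10.39 on the NaCl arrays, and was 7.84-fold higher with NaCl (log2 difference -2.97 ± 0.29, adjusted p = 0.00264). NCED9 (AT1G78390), a second dioxygenase, was at background on all ABA arrays and higher with NaCl by at least 3.88-fold (adjusted p = 0.000683). CYP707A3 (AT5G45340), a hydroxylase that inactivates ABA, measured 10.7, 10.54 and 9.72 on the ABA arrays and 13.27, 13.32 and 13.22 on the NaCl arrays, and was 7.74-fold higher with NaCl (log2 difference -2.95 ± 0.27, adjusted p = 0.00242). Each had non-overlapping groups and each stayed called whichever array was left out. The remaining genes of the pathway, among them ABA1 (AT5G67030) at 0.46 ± 0.23, AAO3 (AT2G27150) at 0.07 ± 0.32 and the glucosyltransferase UGT71B6 (AT3G21780) at 1.08 ± 0.36, were not called.

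In the signalling chain 22.2% of the receptors and 16.7% of the kinases, bZIP factors and their binding proteins were called, against 19.6% of all genes. None of 7 tested clade A PP2C phosphatases was called by limma or by the methods' t-test, and 3 had an unadjusted limma p under 0.05, while without NaCl 2 limma called 1 higher with NaCl. The 2 that passed the adjusted p alone were HAI1 (AT5G59220), at 0.82 ± 0.15 (adjusted p = 0.0109), and ABI1 (AT4G26080), at 0.57 ± 0.17 (adjusted p = 0.0463), both under a fold of 2. ABI2 (AT5G57050) measured 11.80, 11.88 and 11.71 on the ABA arrays and 11.26, 11.48 and 11.45 on the NaCl arrays and HAI2 (AT1G07430) measured 10.03, 10.14 and 10.12 on the ABA arrays and 9.98, 10.66 and 10.41 on the NaCl arrays, levels that differed by less than the fold limit. Of 9 tested receptors PYL6 (AT2G40330) and PYL4 (AT2G38310) were called higher with NaCl, by 4.24-fold and 2.3-fold, but no receptor call in that direction was left without ABA 1, ABA 3, NaCl 1 or NaCl 2. Of 12 kinases, bZIP factors and their binding proteins, SNRK2.2 (AT3G50500), an ABA-activated kinase, was 2.40-fold higher with NaCl (log2 difference -1.27 ± 0.16, adjusted p = 0.00408). AFP1 (AT1G69260), which binds the bZIP factor ABI5, was 2.64-fold higher with ABA (log2 difference 1.40 ± 0.21, adjusted p = 0.00694). ABF3 (AT4G34000) was higher on all ABA arrays, at 0.83 ± 0.14 (adjusted p = 0.00853), and ABF1 (AT1G49720) on all NaCl arrays, at -0.86 ± 0.18 (adjusted p = 0.0163), both under the fold limit.

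**Figure D4:**
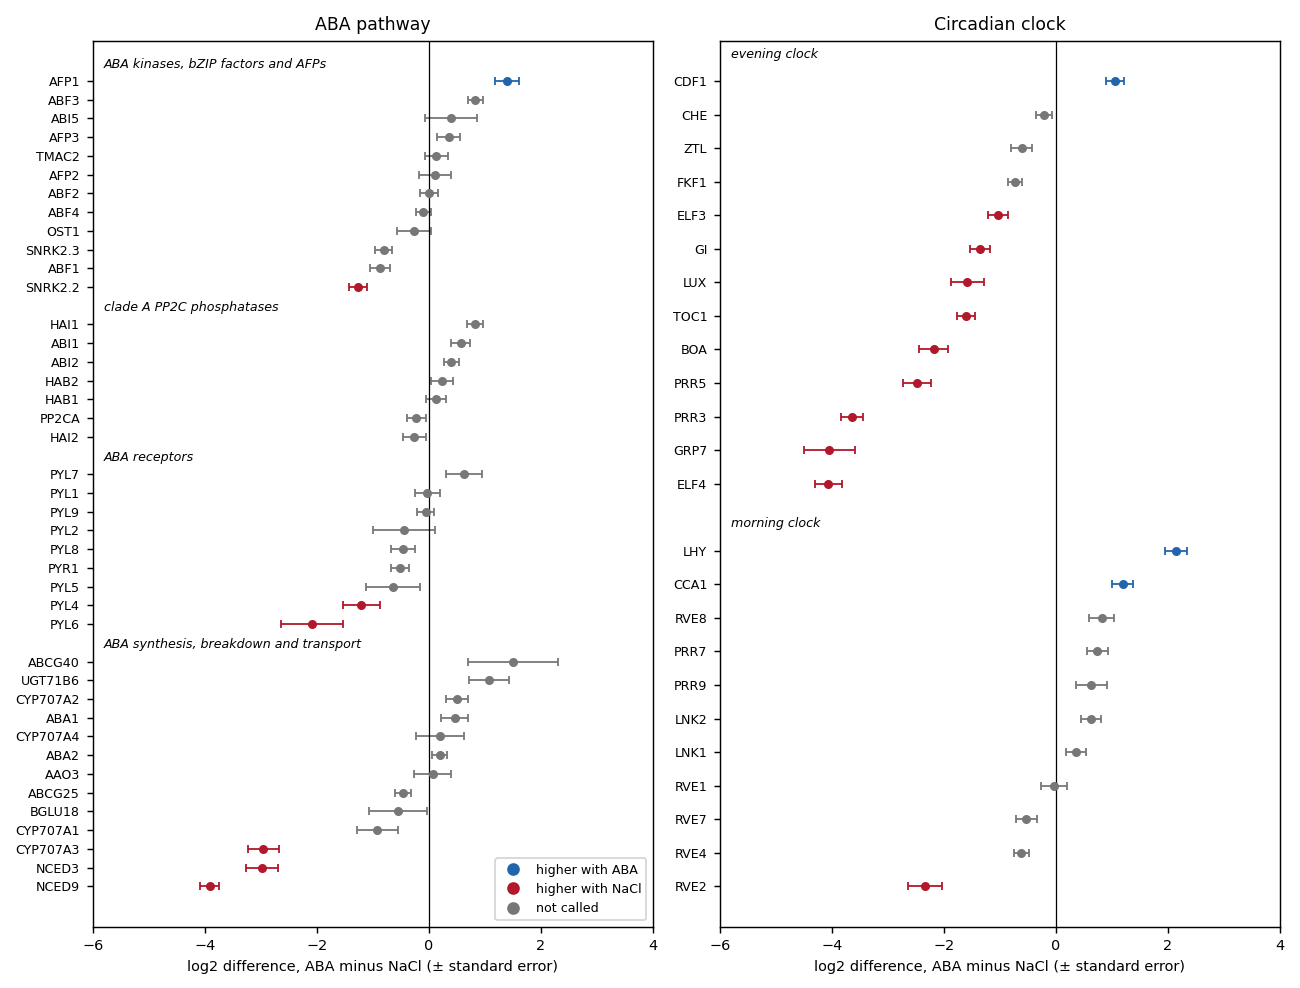
Log2 difference, ABA minus NaCl, with its standard error for the genes of ABA synthesis, receptors, PP2C phosphatases, kinases and bZIP factors (left) and for the evening and morning clock genes (right), coloured by the limma call. NCED9, NCED3 and CYP707A3 lie far to the NaCl side while the phosphatases cluster near 0, and ELF4, GRP7 and PRR3 lie opposite to LHY and CCA1.

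Downstream ABA targets were called in both directions, more of them higher with ABA. Of 20 dehydrins, LEA proteins and cold-regulated genes, which protect dehydrating cells, 5 were called higher with ABA and 2 with NaCl. This was 35% in either direction, against 19.6% of all genes (9.7% higher with ABA and 9.92% with NaCl). The median was 0.39, and 13 of the 20 lay above 0. RD20 (AT2G33380), a caleosin, measured 15.66, 15.98 and 15.83 on the ABA arrays and 14.60, 14.71 and 14.79 on the NaCl arrays, and was 2.17-fold higher with ABA (log2 difference 1.12 ± 0.15, adjusted p = 0.00458). RD29A (AT5G52310), with both drought and ABA promoter elements, measured 14.31, 13.95 and 14.03 on the ABA arrays and 11.33, 12.77 and 12.62 on the NaCl arrays, and was 3.63-fold higher with ABA, a call lost without ABA 1 or ABA 3 (adjusted p up to 0.0615). In contrast RAB18 (AT5G66400), the classic ABA-responsive dehydrin, measured 12.82, 14.14 and 14.07 on the ABA arrays and 16.03, 15.08 and 14.96 on the NaCl arrays, and was 3.22-fold higher with NaCl, a call lost without ABA 1, ABA 2, ABA 3, NaCl 1 or NaCl 2 (adjusted p up to 0.0818). XERO1 (AT3G50980), another dehydrin, was 10.1-fold higher with NaCl (log2 difference -3.33 ± 0.45, adjusted p = 0.00521). ABA 1 was the lowest array for RAB18 and NaCl 1 for RD29A, and the count with ABA was 1 without ABA 1 or ABA 3, while that with NaCl was 3 without NaCl 3 and 1 without any other single array. COR47 (AT1G20440) and ERD14 (AT1G76180), at -0.60 ± 0.13 and -0.47 ± 0.12, lay under the fold limit.

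A further list held the genes of RT-PCR in the study. Of its 9 tested members 2 were called, both higher with NaCl. AT4G10265 measured 5.95, 4.56 and 6.23 on the ABA arrays and 7.58, 8.64 and 9.09 on the NaCl arrays (adjusted p = 0.0145), and the call was lost without NaCl 2 (adjusted p of 0.0549). AT4G15160 measured 4.28, 4.24 and 5.28 on the ABA arrays and 7.10, 6.19 and 6.62 on the NaCl arrays (adjusted p = 0.0113), and its dimmest probe had the opposite sign (1.05, not called). The kinase gene CIPK1 (AT3G17510), at -0.24 ± 0.14, and the calmodulin-like CML42 (AT4G20780), at -0.08 ± 0.16, were close to 0, and AT5G50360 measured 9.75, 9.78 and 10.07 on the ABA arrays and 10.14, 10.18 and 11.75 on the NaCl arrays, with NaCl 3 above the other arrays. The study chose these genes on samples of this series, so they are not independent evidence of a direction.

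Lists of ion and osmotic adjustment differed in the share of genes called. Of 11 tested genes of sodium and potassium transport, 1 was called (9.09%, against 19.6% of all genes), and it was higher with ABA. Without NaCl 2 a further member was called higher with NaCl. SCABP8 (AT4G33000), a calcium sensor of the salt overly sensitive (SOS) pathway in shoots, measured 10.09, 9.98 and 10.05 on the ABA arrays and 8.88, 8.63 and 8.79 on the NaCl arrays, and was 2.41-fold higher with ABA (log2 difference 1.27 ± 0.13, adjusted p = 0.00287). The sodium exporter SOS1 (AT2G01980) measured 8.31, 8.85 and 8.55 on the ABA arrays and 8.91, 8.83 and 8.48 on the NaCl arrays, and its kinase SOS2 (AT5G35410) 8.21, 8.66 and 8.36 on the ABA arrays and 8.41, 8.41 and 7.81 on the NaCl arrays. Neither these levels nor those of the vacuolar exchanger NHX1 (AT5G27150), at -0.22 ± 0.21, differed beyond the spread by the test. HKT1 (AT4G10310), the sodium carrier of the xylem, was at -0.83 ± 0.39 (adjusted p = 0.146). In proline metabolism, with 1 of 7 called, the breakdown enzyme proline dehydrogenase, ERD5 (AT3G30775), was 2.44-fold higher with ABA, a call lost without ABA 2, ABA 3 or NaCl 2 (adjusted p up to 0.0637), and the synthesis enzyme P5CS1 (AT2G39800) measured 12.69, 12.65 and 12.97 on the ABA arrays and 13.24, 13.25 and 12.59 on the NaCl arrays. Of 6 genes of galactinol and raffinose synthesis, which make osmoprotectant sugars, 2 were called higher with ABA and 1 with NaCl (50%, against 19.6% of all genes). Raffinose synthase, RS5 (AT5G40390), was 2.78-fold higher with ABA (log2 difference 1.48 ± 0.19, adjusted p = 0.00442). Galactinol synthase GOLS3 (AT1G09350) measured 9.28, 9.60 and 9.36 on the ABA arrays and 6.84, 8.57 and 7.12 on the NaCl arrays, and was 3.75-fold higher with ABA, a call lost without ABA 1, ABA 2, ABA 3, NaCl 1 or NaCl 3 (adjusted p up to 0.0745). Galactinol synthase GOLS2 (AT1G56600) was 2.24-fold higher with NaCl, a call lost without ABA 1, ABA 2, ABA 3 or NaCl 2 (adjusted p up to 0.0625). Of 19 aquaporins only RD28 (AT2G37180) was called, 2.67-fold higher with ABA, and that call was lost without ABA 2, ABA 3, NaCl 1 or NaCl 2 (adjusted p up to 0.0997), while 2 were called higher with ABA without ABA 1 and 2 higher with NaCl without NaCl 3. TIP2;3 (AT5G47450), a root aquaporin, measured 5.41, 5.66 and 4.63 on the ABA arrays and 10.62, 8.33 and 5.59 on the NaCl arrays, an order over the NaCl arrays like that of the root markers.

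Nuclear genes of photosynthesis lay on the ABA side. Of 47 nuclear genes of the photosystems, antennae and Rubisco small subunits, 15 were called higher with ABA and none with NaCl, with a median of 0.74, against 9.7% of all genes, and 40 had all ABA arrays above all NaCl arrays, against 25.4%. LHCB4.3 (AT2G40100), a minor antenna protein of photosystem II, measured 14.04, 14.25 and 14.39 on the ABA arrays and 9.29, 9.33 and 10.95 on the NaCl arrays, and was 20.7-fold higher with ABA (log2 difference 4.37 ± 0.47, adjusted p = 0.00304). LHCB2.3 (AT3G27690), a main antenna protein, measured 16.73, 16.79 and 16.72 on the ABA arrays and 12.75, 13.79 and 14.67 on the NaCl arrays, and was 8.09-fold higher with ABA (log2 difference 3.02 ± 0.47, adjusted p = 0.00731). NPQ4 (AT1G44575), needed for thermal dissipation of light, was 3.48-fold higher with ABA (adjusted p = 0.00658), with 2 NaCl spots. NaCl 1 was the lowest array for both LHCB genes or close to it, and NaCl 3 the highest NaCl array. Chlorophyll synthesis followed, with 8 of 11 called higher with ABA and a median of 1.31. CAO (AT1G44446), which makes chlorophyll b, measured 13.93, 13.97 and 13.92 on the ABA arrays and 12.09, 12.29 and 12.26 on the NaCl arrays, and was 3.3-fold higher with ABA (log2 difference 1.72 ± 0.13, adjusted p = 0.00144). GUN5 (AT5G13630), the magnesium chelatase subunit, was 3.60-fold higher with ABA (log2 difference 1.85 ± 0.20, adjusted p = 0.00297). The chlorophyll count was 5 without ABA 1 or NaCl 1 and 11 without NaCl 3. Over the NaCl arrays the root marker sums ran opposite to the photosynthesis sums, and their part in these differences was not tested.

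Nitrogen and plastid enzymes showed the same direction in part. GS2 (AT5G35630), the plastid glutamine synthetase, was 2.71-fold higher with ABA (log2 difference 1.44 ± 0.20, adjusted p = 0.00575), and the nitrate transporter NRT1.1 (AT1G12110) was 3.07-fold higher with ABA (log2 difference 1.62 ± 0.30, adjusted p = 0.0115). In all 3 of 15 genes of nitrate uptake and assimilation were called higher with ABA (20%, against 9.7% of all genes), and none with NaCl, with 5 higher with ABA without NaCl 1 and 1 higher with NaCl without NaCl 3. BAM5 (AT4G15210), a beta-amylase, was 17.6-fold higher with ABA (log2 difference 4.14 ± 0.66, adjusted p = 0.00788, difference 3.5 without ABA 3), and 4 of 19 genes of starch and trehalose phosphate metabolism were called higher with ABA, 2 without NaCl 1. CSD2 (AT2G28190), the plastid copper/zinc superoxide dismutase, was 3.25-fold higher with ABA, a call lost without ABA 3 (adjusted p of 0.0515). Ribosomal protein genes of the cytosol did not separate, with none of 34 called by limma or the methods' t-test, 4 at an unadjusted limma p under 0.05 and members between -0.83 and 0.40.

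Genes for aliphatic glucosinolates, the methionine-derived defence compounds of crucifers, lay on the ABA side. Of 14 tested, 8 were called higher with ABA and none with NaCl, with a median of 1.61, and all 14 had a positive difference. MYB29 (AT5G07690), a transcriptional activator of the pathway, measured 10.10, 10.71 and 11.02 on the ABA arrays and 6.71, 8.43 and 7.73 on the NaCl arrays, and was 7.91-fold higher with ABA (log2 difference 2.98 ± 0.48, adjusted p = 0.008). CYP79F1 (AT1G16410), which commits elongated methionine to the pathway, measured 12.66, 13.23 and 13.07 on the ABA arrays and 9.06, 10.56 and 9.02 on the NaCl arrays, and was 10.9-fold higher with ABA (log2 difference 3.44 ± 0.45, adjusted p = 0.00471). BCAT4 (AT3G19710), the aminotransferase of the first elongation step, measured 12.85, 13.38 and 13.29 on the ABA arrays and 10.15, 11.55 and 9.83 on the NaCl arrays, a difference of 6.33-fold (adjusted p = 0.01). NaCl 2 was the highest NaCl array for all 3, and still below the ABA arrays. The activator MYB76 (AT5G07700) was at background on the NaCl arrays and higher with ABA by at least 13.2-fold (adjusted p = 0.00269). MYB28 (AT5G61420), a further activator, measured 8.46, 8.58 and 9.11 on the ABA arrays and 8.02, 8.99 and 8.36 on the NaCl arrays, with overlapping groups. The count fell from 8 to 5 without ABA 3. Of the indole branch and camalexin synthesis, 2 of 11 genes were called higher with ABA, 1 without ABA 1, ABA 3 or NaCl 3 and 3 without NaCl 1 or NaCl 2. CYP81F2 (AT5G57220), which modifies indole glucosinolates, was 5.69-fold higher with ABA (log2 difference 2.51 ± 0.26, adjusted p = 0.0028). CYP71A13 (AT2G30770), of camalexin synthesis, was 13.6-fold higher with ABA, a call lost without ABA 1, ABA 2, ABA 3, NaCl 1 or NaCl 3 (adjusted p up to 0.0981). Sulfate uptake and assimilation, which supply the sulfur, had 2 of 12 genes called, both higher with ABA. This was 16.7%, against 19.6% of all genes in either direction and 9.7% higher with ABA. The median of the list was -0.07, with 5 members above 0. The calls were APS1 (AT3G22890), ATP sulfurylase, 3.18-fold higher with ABA (log2 difference 1.67 ± 0.23, adjusted p = 0.00546), and APR1 (AT4G04610), APS reductase, 2.82-fold higher. The root sulfate transporter SULTR1;2 (AT1G78000) had the opposite sign, at 6.54, 6.73 and 6.58 on the ABA arrays and 10.48, 9.80 and 7.19 on the NaCl arrays, and was not called (adjusted p = 0.0595).

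Glutathione S-transferases of the tau and phi classes, which conjugate glutathione to reactive compounds, were called mostly higher with ABA. Of 38 tested, 14 were called higher with ABA and 4 with NaCl, the latter 2 without ABA 3 and 11 without NaCl 3. This was 47.4% in either direction, against 19.6% of all genes (9.7% higher with ABA and 9.92% with NaCl). The NaCl count was close to the share of all genes. GSTU20 (AT1G78370) measured 14.32, 14.29 and 14.65 on the ABA arrays and 10.17, 11.41 and 11.40 on the NaCl arrays, and was 10.8-fold higher with ABA (log2 difference 3.43 ± 0.37, adjusted p = 0.00302). GSTF6 (AT1G02930) was 6.5-fold higher with ABA (log2 difference 2.70 ± 0.27, adjusted p = 0.00275). GSTU7 (AT2G29420) lay on the other side, 3.05-fold higher with NaCl (log2 difference -1.61 ± 0.32, adjusted p = 0.0149), a call lost without ABA 3 (adjusted p of 0.0564).

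The plant defensins showed the largest folds on the ABA side among the described genes with a matched locus. A called transcript without a matched locus had a larger log2 difference, 8.46, which was 4.03 with normexp background correction. PDF1.2 (AT5G44420), a marker of joint ethylene and jasmonate signalling, measured 15.93, 15.75 and 17.04 on the ABA arrays and 10.04, 10.19 and 8.08 on the NaCl arrays, and was 112-fold higher with ABA (log2 difference 6.80 ± 0.66, adjusted p = 0.0026, difference 6.13 without NaCl 3). PDF1.2b, PDF1.2c and PDF1.3 were 206-fold, 171-fold and 200.5-fold higher, with log2 differences down to 7, 6.71 and 6.90 when ABA 3 or NaCl 3 was left out, but these genes are near-identical copies whose probes may read each other's RNA. ABA 3 was the highest and NaCl 3 the lowest array for all 4. The activators of defensin genes did not differ in this way, since ERF1 (AT3G23240) measured 10.62, 10.23 and 10.42 on the ABA arrays and 10.84, 10.97 and 10.23 on the NaCl arrays and ORA59 (AT1G06160) 9.62, 9.39 and 10.61 on the ABA arrays and 9.96, 9.78 and 9.69 on the NaCl arrays. CHI-B (AT3G12500), a basic chitinase, had the opposite sign, at -1.79 ± 0.90 (adjusted p = 0.17).

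Jasmonate genes were called in both directions. Of 13 genes of jasmonate synthesis and breakdown, 3 were called higher with ABA and 1 with NaCl (30.8%, against 19.6% of all genes). The latter was the lipoxygenase LOX4 (AT1G72520), a call lost without ABA 1, ABA 2, ABA 3, NaCl 1 or NaCl 2 (adjusted p up to 0.103). Without NaCl 3 the count with NaCl was 3. LOX2 (AT3G45140), the plastid lipoxygenase of jasmonate synthesis, measured 17.34, 17.81 and 17.83 on the ABA arrays and 15.13, 16.46 and 15.16 on the NaCl arrays, and was 4.22-fold higher with ABA (log2 difference 2.08 ± 0.40, adjusted p = 0.013). AOC2 (AT3G25770), an allene oxide cyclase in a tandem array, was 11-fold higher with ABA (log2 difference 3.46 ± 0.49, adjusted p = 0.00585). By contrast JAZ8 (AT1G30135), a repressor of jasmonate responses, measured 5.58, 6.11 and 5.49 on the ABA arrays and 11.76, 11.88 and 10.62 on the NaCl arrays, and was 52.0-fold higher with NaCl (log2 difference -5.70 ± 0.38, adjusted p = 0.00122). The repressor JAZ7 (AT2G34600) and the factor MYC2 (AT1G32640) were 14.9-fold (log2 difference -3.19 without ABA 3) and 4.03-fold higher with NaCl, and ORA47 (AT1G74930), an activator of jasmonate synthesis, 46.3-fold. Of 13 JAZ repressors and targets JAZ8, JAZ7 and MYC2 were the calls (23.1%, against 19.6% of all genes), with 1 further call higher with ABA without NaCl 1 or NaCl 2. The median of this list was 0.19, with 7 members above 0. The vegetative storage protein VSP2 (AT5G24770) measured 13.77, 12.75 and 13.35 on the ABA arrays and 12.07, 13.96 and 13.27 on the NaCl arrays. In the salicylic acid pathway EDS1 (AT3G48090) was 3.53-fold higher with ABA (log2 difference 1.82 ± 0.29, adjusted p = 0.008), the only call of 13 tested, against 3 calls without NaCl 1, 6 with the slide as a random block and 7 with array weights, all higher with ABA. PR1 (AT2G14610), the marker of that pathway, measured 9.62, 10.77 and 8.78 on the ABA arrays and 8.21, 2.01 and 7.67 on the NaCl arrays, with NaCl 2 far below the others (adjusted p = 0.133).

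**Figure D5:**
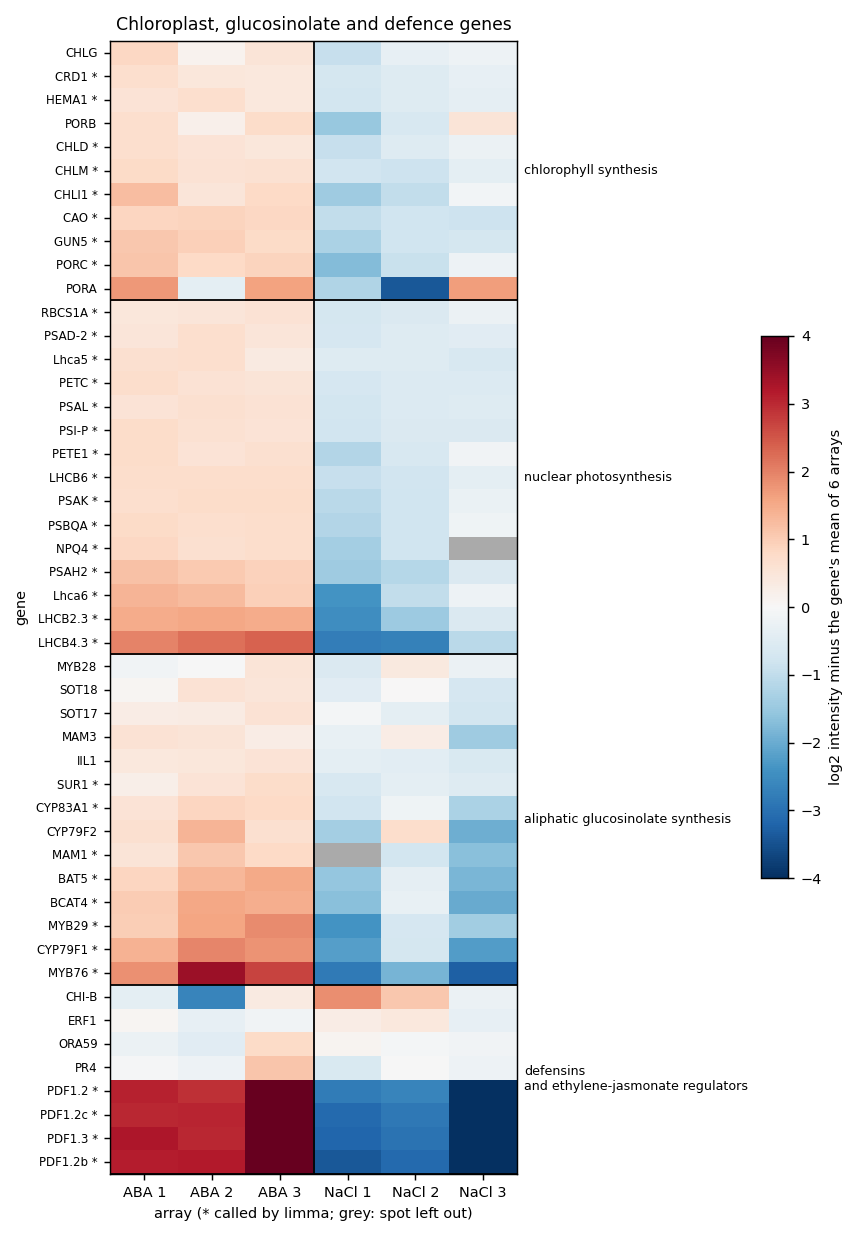
Log2 intensity of each gene on each array minus the mean of its 6 arrays, colours ending at 4 log2 units either way and grey for a spot left out, for chlorophyll synthesis, the called nuclear photosynthesis genes, aliphatic glucosinolate synthesis and defensins with their regulators (asterisk, called by limma). ABA arrays are above NaCl arrays throughout the called genes, and PDF1.2, PDF1.2b, PDF1.2c and PDF1.3 show the strongest contrast.

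The other hormones differed in single genes. In ethylene synthesis EFE (AT1G05010), an ACC oxidase, measured 15.58, 15.87 and 15.87 on the ABA arrays and 13.31, 13.89 and 14.13 on the NaCl arrays, and was 3.98-fold higher with ABA (log2 difference 1.99 ± 0.24, adjusted p = 0.00396), opposite to ACS6. For gibberellin GA3OX1 (AT1G15550), which forms the active hormone, was 4.71-fold higher with ABA (log2 difference 2.24 ± 0.16, adjusted p = 0.00134), GA2OX6 (AT1G02400), which inactivates it, was 6.39-fold higher with NaCl (log2 difference -2.68 ± 0.34, adjusted p = 0.00433), and GA2OX8 (AT4G21200) was at background on the NaCl arrays and higher with ABA by at least 2.83-fold (adjusted p = 0.00251). Among 9 type-A response regulators, fast negative regulators of cytokinin signalling, ARR16 (AT2G40670) was 6.17-fold higher with ABA (log2 difference 2.63 ± 0.53, adjusted p = 0.0152) and ARR5 (AT3G48100) 3.92-fold higher with NaCl (log2 difference -1.97 ± 0.36, adjusted p = 0.0153), the latter with 2 NaCl spots. IAA5 (AT1G15580) was the only call among 12 early auxin genes, 4.85-fold higher with ABA, and it was lost without ABA 2, ABA 3, NaCl 1 or NaCl 2 (adjusted p up to 0.0918), while 3 were called without ABA 1. Brassinosteroid synthesis had no call by limma or the methods' t-test in 5 genes, 3 of them at an unadjusted limma p under 0.05, and 1 call with the slide as a random block or without ABA 2 or NaCl 3, with DWF4 (AT3G50660) at -0.59 ± 0.16 (adjusted p = 0.0361).

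Genes that remodel the cell wall were called in both directions. Of 50 expansins and xyloglucan endotransglucosylases (XTH), which loosen or re-join wall polymers, 7 were called higher with ABA and 8 with NaCl, 30% in all against 19.6% of all genes. Leaving out 1 array gave 4 to 8 higher with ABA and 4 to 10 higher with NaCl, and array weights gave 13 of each. XTH7 (AT4G37800) measured 14.23, 14.21 and 13.96 on the ABA arrays and 10.76, 12.32 and 11.63 on the NaCl arrays, and was 5.90-fold higher with ABA (log2 difference 2.56 ± 0.39, adjusted p = 0.00713). EXPA16 (AT3G55500) was at background with NaCl and higher with ABA by at least 20.9-fold (adjusted p = 0.00307). XTH5 (AT5G13870) lay on the other side, 3.14-fold higher with NaCl (log2 difference -1.65 ± 0.17, adjusted p = 0.00297), as did XTH14 (AT4G25820), at background with ABA and higher with NaCl by at least 3.90-fold (adjusted p = 0.00391).

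LTP2, LTP3 and LTP4, lipid transfer proteins held to carry lipids to the cuticle, were called higher with NaCl. LTP3 (AT5G59320) measured 12.77, 12.63 and 12.11 on the ABA arrays and 16.69, 16.26 and 15.56 on the NaCl arrays, and was 12.6-fold higher with NaCl (log2 difference -3.66 ± 0.33, adjusted p = 0.00239). LTP2 (AT2G38530) was 12.3-fold higher with NaCl (log2 difference -3.62 ± 0.32, adjusted p = 0.0022), and LTP4 (AT5G59310) 19.2-fold higher, with 2 NaCl spots. The wax gene MAH1 (AT1G57750) measured 3.1, 1.79 and 4.83 on the ABA arrays and 5.82, 7.50 and 10.09 on the NaCl arrays, with NaCl 3 the highest, as for the flower markers, and its call was lost without ABA 1, ABA 2, ABA 3, NaCl 2 or NaCl 3 (adjusted p up to 0.0978). In the list of 15 the count of 4 became 2 without NaCl 3 and 6 without NaCl 1. DIC2 (AT4G24570), a mitochondrial dicarboxylate carrier, was 35.9-fold higher with NaCl (log2 difference -5.16 ± 0.35, adjusted p = 0.00122). SAG12 (AT5G45890), a protease gene of leaf senescence, measured 4.29, 3.11 and 3.95 on the ABA arrays and 13.88, 7.94 and 12.78 on the NaCl arrays, with 1 ABA array above background. Its difference was -7.75 ± 1.52 (adjusted p = 0.0139), but it ranged from -9.62 without NaCl 2 to -6.60 without NaCl 1 and was -5.29 with normexp background correction, while SAG13 (AT2G29350) measured 13.16, 12.98 and 13.37 on the ABA arrays and 13.48, 12.47 and 12.65 on the NaCl arrays. PHT1;1 (AT5G43350), the root phosphate transporter, measured 5.67, 4.63 and 2.79 on the ABA arrays and 12.01, 9.92 and 6.04 on the NaCl arrays, in the order of the root markers over the NaCl arrays, and was not called (adjusted p = 0.0568). Among the iron genes PYE (AT3G47640), a regulator of iron supply, was 2.21-fold higher with NaCl (log2 difference -1.14 ± 0.15, adjusted p = 0.00455) and the transporter OPT3 (AT4G16370) 2.2-fold higher with ABA (log2 difference 1.13 ± 0.13, adjusted p = 0.00367). The anthocyanin regulator PAP2 (AT1G66390) was 7.25-fold higher with ABA, a call lost without ABA 3 (adjusted p of 0.0586), and its target DFR (AT5G42800) measured 8.57, 5.66 and 11.41 on the ABA arrays and 1.69, 7.71 and 3.40 on the NaCl arrays, a spread that left it uncalled (adjusted p = 0.145). No gene of 15 for the cell cycle and DNA replication was called by limma or the methods' t-test or had an unadjusted limma p under 0.05, but 1 was called higher with ABA without NaCl 3 and 12 with array weights. ABA 2, NaCl 1 and NaCl 2 lay below the other arrays for cyclin CYCB1;2 (AT5G06150), at 8.58, 6.93 and 7.89 on the ABA arrays and 6.24, 5.34 and 7.66 on the NaCl arrays.

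For 200 called genes that the naming rule covers or that were added to it, 6 fits left out 1 array each. In these, 130 stayed called in every fit that tested them, 70 lost the call in at least 1 fit, and none changed direction. ARR5, LTP4 and AT2G14247 were tested in only 4 of the 6 fits. Leaving out 1 array moved the fold by over 1.5 times for 11 to 16 of them. Where a gene had a further probe, that probe had the same sign in 928 of 962 called genes (96.5%), against 4717 of 5933 genes overall (79.5%).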

How the data were processed

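Gene expression was measured on one-colour Agilent arrays in seedlings given ABA (n = 3) or NaCl (n = 3), grouped by the titles of the samples. Per the file headers, each array was processed with Agilent Feature Extraction 10.7.3.1, and the deposited intensity is the brightness of a spot after background subtraction and removal of spatial trends, with no scaling between arrays. The deposited array files also hold marks of 0 or 1 for spots that were well above background, non-uniform, outlying or saturated. The deposited value table of the series holds log2 values that the authors quantile-normalized, with one distribution for the control and ABA columns and another for the NaCl columns, and it served as an alternative.

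Intensities of the 43603 non-control probes were taken to log2 and quantile-normalized over the 6 arrays, without marked spots. Probes entered the test with 2 or more values in each group and a signal well above background throughout 1 group or both, which left 30161 probes, and the brightest one stood for its gene, which left 22435 genes. The probes carry annotation of build TAIR10 in 2 versions, which clashed for 38 probes. A RefSeq table of assembly TAIR10.1 gave names to 34445 probes at 25454 loci and no coordinates, and 3552 tested genes had no matched locus. Promoter sequences were not analysed here. The comparison used lmFit and eBayes of limma 3.58.1 (R 4.3.3) with Benjamini-Hochberg adjustment, and a gene was called at an adjusted p under 0.05 and a fold of at least 2. The number of arrays limits the precision, since a two-sided permutation test of 3 against 3 arrays cannot go below p = 0.1. The fit was tested on simulated data with 200 changed genes.

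Described genes were the 12 with the largest folds in each direction among called genes above background on all arrays with groups that did not overlap, the 6 with the largest lower bounds in each direction, the 4 called genes with the largest folds of each list, every member of lists of up to 14 tested genes and the RT-PCR genes of the study. Of the other list members, ADH1, ALAAT1, CBF3, COR47, CYCB1;2, DDF1, DREB2A, ERD14, ERF11, ERF1A, ERF2, GSTF6, GSTU7, NAC062, NAC6, NPQ4, PDC1, PDC2, RD20, SAD6, TIP2;3, WRKY22, XTH5 and XTH7 were chosen after their values were seen. The comparison, the 44 lists and the 9 families found by name were chosen with earlier results of these data known, and genes of other proteins that the name search had caught were removed from 3 families after their values were seen. Alternatives covered the scaling, background correction (normexp with an offset of 50, on the median spot signal because the array files used here hold no mean signal), filters, probe choice, marked spots, blocks, the methods' t-test (unequal variances) and each array left out.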

Additional observations from a re-analysis of the deposited data

How the results depend on the processing

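The main calls were 2177 genes higher with ABA and 2225 higher with NaCl. Without scaling between arrays they were 8035 and 892, and with scaling to the spike-in controls, chosen after the data were seen, 12990 and 619. Normexp background correction gave 1209 and 1404, the methods' t-test after Benjamini-Hochberg adjustment 528 and 691, and dropping the fold limit 3727 and 3921. Leaving out 1 array gave 1529 to 2628 genes higher with ABA and 1634 to 2626 higher with NaCl, with the lowest counts without NaCl 2 and the highest without NaCl 3. The other alternatives kept both counts within 1.5 times, and with the value table of the series 4343 of the 4402 called genes were called in the same direction. The cause of these changes was not tested, except that dropping the fold limit admits smaller differences.

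The ABA columns of the value table match the array files in another order, so the ABA numbers may be crossed. The replicate numbers do not pair the arrays by any label, and deviations from the group means correlated at -0.12, -0.0041 and 0.23 for numbers 1, 2 and 3, while ABA 1 correlated best with NaCl 3 and ABA 2 with NaCl 1. With the replicate number as a block the calls were 1818 and 2033, and 2 low-oxygen genes were called in place of 11.

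With the dimmest probe of the gene the sign turned for 2 described genes with a call in one of the fits, APX1 from 0.08 to -1.01 and AT4G15160 from -2.04 to 1.05, and for 19 with no call in either. Normexp made the fold smaller by over 1.5 times in 75 of 200 described called genes, and array weights, whose estimation stopped before it converged, moved it that far in 38. Of 10957 values of the described genes under alternatives, 10010 kept their direction and call, 479 lost the call, 252 gained it and 214 changed sign with no call in either fit. Part of this agreement was fixed in advance. Without scaling and with spike-in scaling the main call was carried over, so only the direction could change. Alternatives that changed only the test or the fold limit reused the main differences, so only the call could change there. The medians of the ERF and CBF, low-oxygen, evening clock, nuclear photosynthesis, chlorophyll and aliphatic glucosinolate lists kept their sign in every alternative run for the lists. The search for promoter motifs was not run. Signal over background limits the 346 called genes at background in one group to lower bounds, which hold only for the main background correction. No value separates treatment from scan day.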
